A study of Mus musculus with 8 samples.

Results

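Cells that grew as spheres from Bmi1-transduced mouse astrocytes were compared with the Bmi1-transduced cells that the labels call uninduced. The samples were chosen by their titles, 2 of the 8 of the series, and each was measured once on an Affymetrix gene array. The uninduced sample is described as embryonic astrocytes transduced with Bmi1. The sphere sample is described as cells that de-differentiated from such astrocytes in neural stem cell (NSC) culture, so both groups carry the Bmi1 transduction. Embryonic stem (ES) cells from blastocysts and embryonic astrocytes without the transduction, 1 array each, gave the reference levels. Total RNA of each population was used. The other 4 samples were measured on Agilent arrays and were not used here. The labels of these arrays name no small molecule, although the title of the series concerns reprogramming with small molecules. The sources used here do not give the vector and promoter that drive Bmi1, the mouse strain, the number of animals pooled or the meaning of "uninduced".

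Bmi1 belongs to Polycomb repressive complex 1, which keeps genes silent through histone modification. It is known for sustaining the self-renewal of neural stem cells, in part by keeping the cell cycle inhibitor locus Cdkn2a silent. Astrocytes are the supporting glia of the brain, and neural stem cells in serum-free culture with growth factors form floating spheres. ES cells are pluripotent and express a gene programme that astrocytes largely lack.

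The arrays report probe sets, each a group of probes whose signals were summarised to 1 value. No table used here pairs these probe sets with genes. The level of Bmi1 and the markers of neural stem cells, astrocytes and pluripotent cells were therefore not analysed here, and the labelled cell types could not be checked against their markers. The results below describe groups of probe sets by their size, direction and place relative to ES cells and astrocytes. With 1 array per group there is no replicate error and no test, and each difference describes these arrays. In bulk RNA, a different level per cell and a different share of cells of a kind cannot be told apart.

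Values were log2 expression on the scale of RMA, a method that corrects background, normalises arrays to a common distribution and summarises probes. The table held 35557 probe sets. The median over all 4 arrays was 3.13, and the array medians were 3.19 for spheres, 3.07 for uninduced cells, 3.20 for ES cells and 3.06 for astrocytes. A probe set entered the comparison when the higher of its sphere and uninduced values exceeded that overall median, which 19068 (53.6%) did. The lowest value that entered was 3.1334 and the highest that did not was 3.1328. Among all 35557 rows, 476 repeated the 4 values of another probe set, and 176 of the rows that entered did so.

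Most probe sets had similar values in spheres and uninduced cells, while a minority differed widely, and the widest differences were mostly upward in spheres, from uninduced values at the low end of the scale. The median difference, spheres minus uninduced, was -0.05 on the log2 scale, with quartiles of -0.49 and 0.37. At least 2-fold higher in spheres were 1526 probe sets (8% of those that entered) and at least 2-fold lower 1667 (8.74%). At least 4-fold higher were 412 (2.16%) and at least 4-fold lower 154 (0.808%). The share of higher probe sets among those that changed was thus 47.8% at 2-fold and 72.8% at 4-fold. It was 87.6% at 8-fold, where 141 were higher and 20 lower, and 96.5% at 16-fold, where 55 were higher and 2 lower. Past 32-fold there were 16 higher and 0 lower, and past 64-fold 4 higher and 0 lower. The upward differences reached 7.86 log2 units and the downward ones 4.57. Nearly all of the 55 had an uninduced value at or below the overall median and entered only through the sphere array. The 2 lower ones had sphere values of 4.70 and 3.57, above that median. With both values above it, the 4-fold counts were 106 and 101, and the differences reached 5.09 upward and 4.57 downward. For such probe sets the rising share thus does not show that wide differences were mostly upward.

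**Figure D1:**
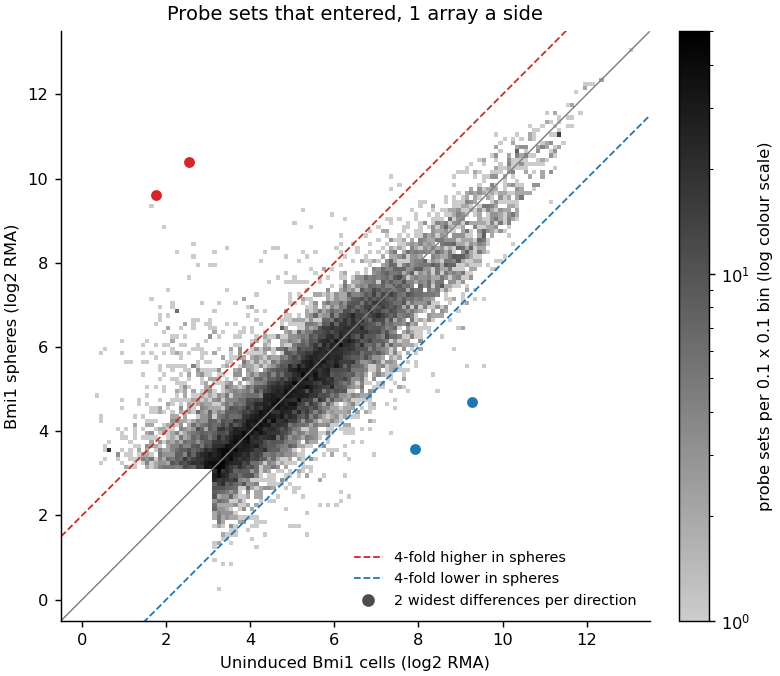
Log2 RMA value in uninduced Bmi1 cells (x axis) against Bmi1 spheres (y axis) for the 19068 probe sets that entered, with grey shade for the number of probe sets per bin on a log colour scale, dashed lines at 4-fold and dots for the 2 widest differences in each direction. The cloud follows the diagonal, and the points above the upper dashed line (412) outnumber those below the lower dashed line (154) and lie farther out; the empty corner at the lower left is made by the filter at 3.13.

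**Figure D2:**
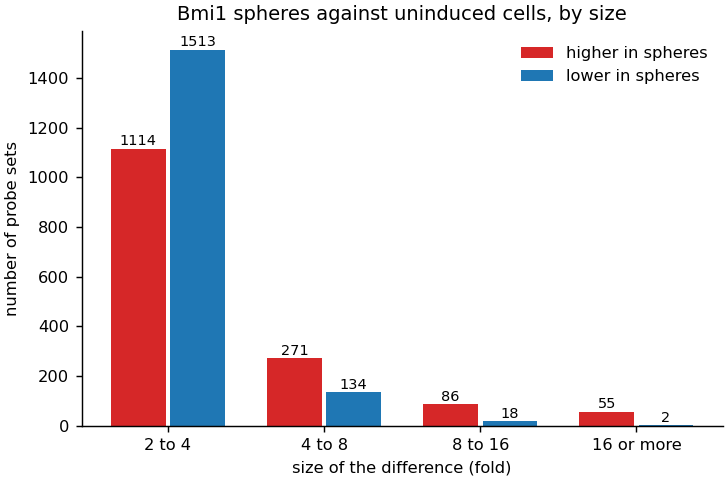
Number of probe sets (y axis) in each range of fold difference (x axis), red for higher and blue for lower in spheres. Between 2-fold and 4-fold the lower probe sets are more numerous (1513 against 1114), and in each wider range the higher ones are (271 against 134, 86 against 18, and 55 against 2). Most of the higher ones past 4-fold (306 of 412) had an uninduced value at or below the overall median.

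The balance between the directions followed the level of expression. The probe sets were divided into 4 equal bins by the mean of both arrays. In the dimmest bin (1.75 to 3.87), 196 differed 4-fold or more upward in spheres and 34 downward. In the next bin the numbers were 132 and 41. In the upper 2 bins they were nearly even, with 47 and 44, then 37 and 35. At 2-fold the brightest bin (6.14 to 13.07) leaned the other way, with 206 higher and 588 lower, and its median difference was -0.16. The spread changed less, with an interquartile range of 0.93, 0.78, 0.83 and 0.95 from the dimmest to the brightest bin. In the dimmest bin the limits of the bin place the lower value of any 4-fold difference below the overall median. The 196 and 34 probe sets there thus entered only through the array where they were higher.

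Counts and balance moved with scaling and filter. Centring each array on its own median moved the median difference over all probe sets from -0.02 to -0.14, and the share of higher probe sets to 35.95% at 2-fold and 62.3% at 4-fold. When both values had to exceed the overall median, 106 probe sets differed 4-fold or more upward in spheres and 101 downward, a nearly even split (51.2% higher).

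Many of the probe sets that were higher in spheres were at the low end of the scale in uninduced cells. Of the 412 that were 4-fold higher, 306 (74.3%) had an uninduced value at or below the overall median and 106 had both values above it. Their uninduced values ran from 0.32 to 7.53 with a median of 2.39. Their sphere values ran from 3.16 to 10.40 with a median of 5.43, and the median difference was 2.71 log2 units, or 6.56-fold. Of the 154 that were 4-fold lower, 53 (34.4%) had a sphere value at or below the overall median and 101 had both values above it. Their uninduced values had a median of 6.27 and their sphere values 3.78, with a median difference of 5.03-fold. The probe sets that were lower in spheres thus mostly kept a value above the overall median there. Just inside the 4-fold threshold the differences were 2.0021 and -2.0091, and just outside it 1.9999 and -1.9975.

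On the ES array, the probe sets that differed 4-fold had values like those of the spheres. Among the 412 higher ones, the ES median was 5.48, beside 5.43 in spheres, 2.39 in uninduced cells and 3.32 in astrocytes. ES cells were nearer to the sphere value than to the uninduced value in 364 of them (88.3%, 95% exact binomial interval 84.9 to 91.3%). The interval covers counting only, since probe sets are not independent. In 320 (77.7%) the ES and sphere values were within 2-fold of each other, and in 249 the ES value was at or above the sphere value. Among the 154 lower ones, the ES median was 3.58, beside 3.78 in spheres, 6.27 in uninduced cells and 5.06 in astrocytes. ES cells were on the sphere side in 137 (89.0%, 82.9 to 93.4%) and within 2-fold of the sphere value in 107 (69.5%). In 74 the ES value was at or below the sphere value, and in 0 of 154 was it at or above the uninduced value. Where both the sphere and the uninduced value exceeded the overall median, ES cells were on the sphere side in 94 of 106 higher probe sets (88.7%). The number was 89 of 101 for the lower ones (88.1%).

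**Figure D3:**
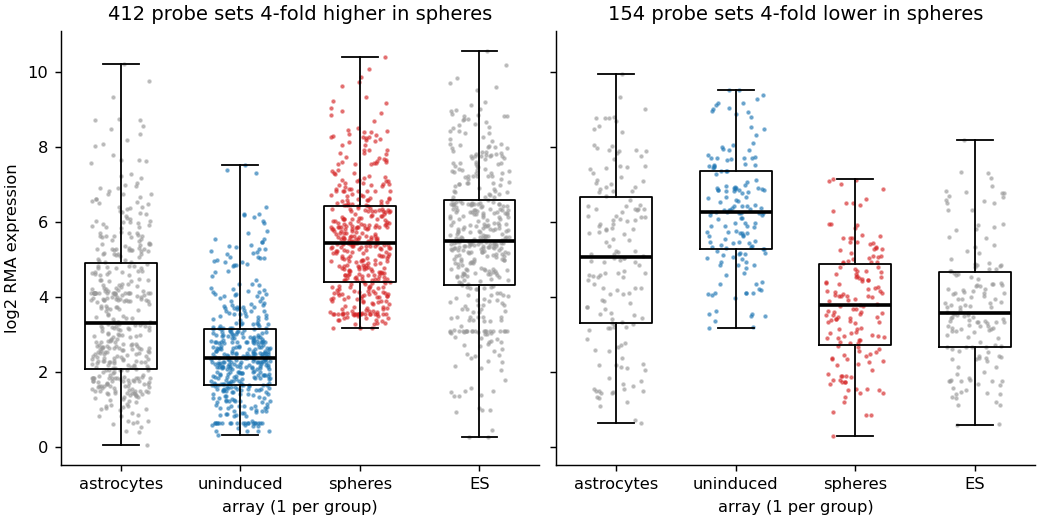
Log2 RMA expression (y axis) on each of the 4 arrays (x axis) for the 412 probe sets 4-fold higher (left) and the 154 probe sets 4-fold lower (right) in spheres, where each point is a probe set, boxes show median and quartiles, and whiskers reach the extremes. Spheres and uninduced cells differ by the choice of the probe sets, and the ES boxes lie beside those of the spheres (medians 5.48 and 5.43 on the left, 3.58 and 3.78 on the right), while astrocytes lie between (3.32 and 5.06).

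Astrocytes, the cell type from which both populations were made, leaned to the uninduced side for the higher probe sets and were nearly evenly split for the lower ones. Among the 412 probe sets higher in spheres, the astrocyte value was nearer to the uninduced value in 274 and nearer to the sphere value in 138 (33.5%, 28.9 to 38.3%). It lay within 2-fold of the uninduced value in 241 (58.5%) and within 2-fold of the sphere value in 93 (22.6%). Among the 154 lower ones, astrocytes were on the uninduced side in 79 and on the sphere side in 75 (48.7%, 40.6 to 56.9%). For the lower probe sets, astrocytes therefore did not lean to either side. Where both the sphere and the uninduced value exceeded the overall median, astrocytes were on the sphere side in 34.0% of 106 higher and 45.5% of 101 lower probe sets.

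The position of an array between both values places it on a scale from the uninduced level (0) to the sphere level (1). For the higher probe sets the median position of ES cells was 1.04, with quartiles of 0.90 and 1.18, and that of astrocytes 0.19, with quartiles of -0.02 and 0.72. For the lower ones it was 0.98 in ES cells, with quartiles of 0.77 and 1.21, and 0.49 in astrocytes, with quartiles of 0.06 and 0.98. The ES positions were narrow and close to the spheres, and the astrocyte positions spanned most of the range.

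The sides of ES cells and astrocytes together divided the probe sets into 4 groups. The most numerous held 239 of the 412 higher probe sets (58.0%), with ES cells on the sphere side and astrocytes on the uninduced side. Their median values were 5.61 in spheres, 5.95 in ES cells, 2.36 in uninduced cells and 2.52 in astrocytes. In 214 of these 239 the spheres were within 2-fold of ES cells, and in 212 the uninduced cells were within 2-fold of astrocytes. The choice of the group sets these sides, and the uninduced and astrocyte medians lay below the overall median of 3.13.

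A further 125 of the higher probe sets (30.3%) had both ES cells and astrocytes on the sphere side. Their median values were 5.28 in spheres, 5.42 in ES cells and 5.22 in astrocytes, against 2.44 in uninduced cells, and the spheres were within 2-fold of ES cells in 106 and within 2-fold of astrocytes in 87. The choice of this group makes the uninduced array the one that stands apart. With 1 uninduced array, an error of that array and a level of these cells cannot be told apart. Both reference arrays were on the uninduced side in 35 (8.50%), with medians of 4.80 in spheres, 2.62 in ES cells, 2.29 in astrocytes and 2.17 in uninduced cells. The remaining 13 had astrocytes on the sphere side and ES cells on the uninduced side.

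Among the 154 lower probe sets, the most numerous group had both ES cells and astrocytes on the sphere side, with 72 (46.8%). Its median values were 6.32 in uninduced cells, 3.87 in spheres, 3.28 in ES cells and 3.40 in astrocytes. In 65 (42.2%) astrocytes were on the uninduced side and ES cells on the sphere side, with medians of 6.23 in uninduced cells, 6.33 in astrocytes, 3.61 in spheres and 3.53 in ES cells. Another 14 had both reference arrays on the uninduced side, and 3 had astrocytes on the sphere side with ES cells on the uninduced side. Sides are relative to the midpoint and do not say whether a probe set was expressed: astrocytes exceeded the overall median in 44 of the 72 and in 64 of the 65.

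**Figure D4:**
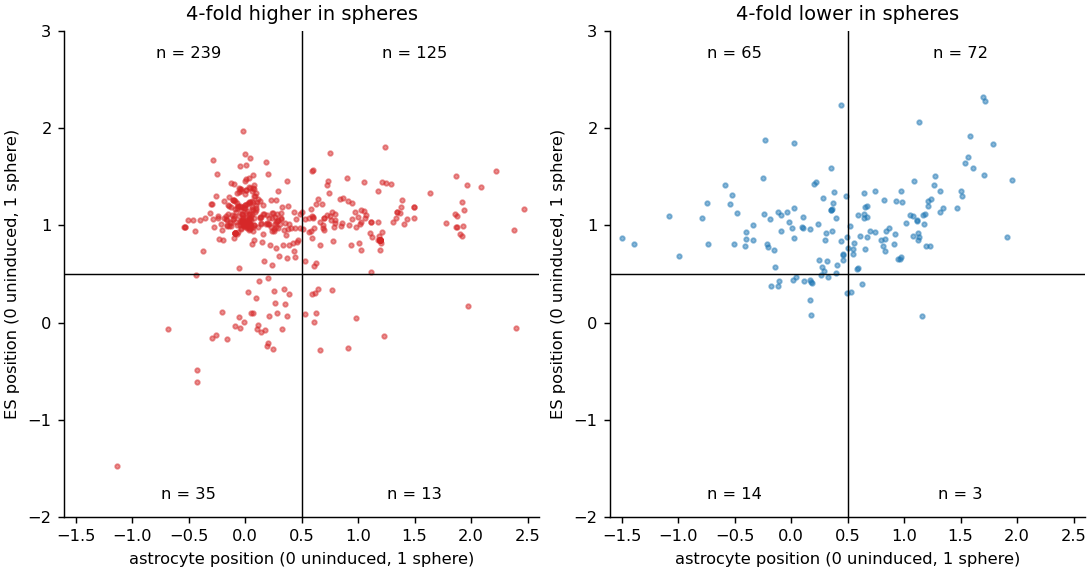
Position of astrocytes (x axis) and ES cells (y axis) between the uninduced value (0) and the sphere value (1), each point a probe set 4-fold higher (left) or lower (right) in spheres, with lines at the midpoint of 0.5 and the number of probe sets in each corner; points past -1.5 or 2.5 are drawn there (1 in the right panel). Most points lie in the upper part near an ES position of 1, and on the left a dense cluster of the 239 probe sets lies near an astrocyte position of 0.

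Rows of the table that repeat each other touch these groups. The 412 higher probe sets included 26 with the same 4 values as another of them, of which 23 were repeats, and 18 of the 26 had both ES cells and astrocytes on the sphere side. These 18 belong to the 125 and read 0.64 in uninduced cells and 3.54 in spheres. Further probe sets of the 125 with neighbouring numbers had values close to these. None of the 154 lower ones was a repeat. The table also opens with an unbroken run of 6614 consecutive probe set numbers, and no source used here says what kind of probe set these are. It may hold control probe sets of the array design. It gave 3485 (18.3%) of the 19068 probe sets that entered, 27 of the 412 and 25 of the 154. Of those 27, 17 had ES cells and astrocytes both on the uninduced side. Without the run, and with the overall median taken anew, 383 probe sets were 4-fold higher and 128 were 4-fold lower in spheres, and ES cells were on the sphere side in 92.4% and 93.0% of them.

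The share of probe sets with ES cells on the sphere side grew with the size of the difference. For probe sets higher in spheres it was 50.5% below 2-fold, 70.8% from 2-fold to 4-fold, 86.0% from 4-fold to 8-fold and 92.9% at 8-fold or more. For those lower in spheres it was 60.4%, 63.2%, 87.3% and 100%, the last over 20 probe sets. The astrocyte shares showed no such order, with 36.5%, 33.4%, 37.3% and 26.2% for the higher and 58.2%, 53.3%, 47.8% and 55.0% for the lower probe sets. The ranges are set by the sphere and uninduced values, which lie close together below 2-fold. The median distance between spheres and ES cells was 0.41 log2 units, so a side means little in that range. Part of the rise in the ES share is therefore built into the ranges. Among the 55 probe sets at least 16-fold higher in spheres, ES cells were on the sphere side in 54 and astrocytes in 10, and 44 had ES cells on the sphere side and astrocytes on the uninduced side.

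The 20 widest differences per direction are part of the probe sets described above, so they describe these further and are no separate evidence. Over the 20 widest upward differences, from 4.86 to 7.86 log2 units, the medians were 7.91 in spheres, 8.004 in ES cells, 2.08 in uninduced cells and 2.29 in astrocytes. The uninduced median lay below the overall median, so many of these 20 entered only through the sphere array. ES cells were on the sphere side in all 20 of these and within 2-fold of the spheres in 18, and astrocytes were on the sphere side in 2. Probe set 10547641 read 10.40 in spheres, 10.55 in ES cells, 5.59 in astrocytes and 2.54 in uninduced cells. Its uninduced value lay below the overall median. Against that median it was at least 154-fold higher in spheres than in uninduced cells, and at least 5.49-fold higher in astrocytes. Probe set 10597268 read 9.62 in spheres, 10.17 in ES cells, 2.06 in astrocytes and 1.76 in uninduced cells, with spheres at least 89.4-fold above uninduced cells on the same basis and 1.46-fold below ES cells. Both were high in spheres and ES cells, and they differ in the astrocyte level, which lay above the overall median in the former only.

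Over the 20 widest downward differences, from 3.01 to 4.57 log2 units, the medians were 2.502 in spheres, 3.12 in ES cells, 6.21 in uninduced cells and 5.01 in astrocytes. ES cells were on the sphere side in all 20, within 2-fold of the spheres in 13, and astrocytes were on the sphere side in 11. Of these 20, 3 came from the run of consecutive numbers, against 0 of the 20 widest upward differences. Probe set 10523120 read 9.27 in uninduced cells, 6.34 in astrocytes, 4.70 in spheres and 3.15 in ES cells, and was 23.7-fold lower in spheres than in uninduced cells. It was highest in uninduced cells, 7.61-fold above astrocytes. Probe set 10492448 read 7.91 in uninduced cells, 7.20 in astrocytes, 3.57 in spheres and 3.73 in ES cells, a difference of 20.3-fold between uninduced cells and spheres. Here uninduced cells and astrocytes were within 1.64-fold of each other, as were spheres and ES cells within 1.11-fold.

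Probe sets can also be chosen on ES cells and astrocytes alone, without the sphere and uninduced values. This description was added after the data were seen. At least 4-fold higher in ES cells than in astrocytes were 517 probe sets (2.65% of 19543), with medians of 6.02 and 2.86. Their sphere values had a median of 5.63 and quartiles of 4.396 and 6.70, and their uninduced values a median of 3.52 and quartiles of 2.13 and 5.54. Spheres were nearer to ES cells in 490 of the 517 (94.8%, 92.5 to 96.5%) and uninduced cells in 167 (32.3%, 28.3 to 36.5%). On a scale from astrocytes (0) to ES cells (1), the median position was 0.86 in spheres and 0.15 in uninduced cells. The spheres were at least 2-fold above the uninduced cells in 333 and at least 2-fold below them in 13. Spheres alone were on the ES side in 328, both in 162, uninduced cells alone in 5 and neither in 22.

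The probe sets that were at least 4-fold lower in ES cells than in astrocytes numbered 875 (4.48%), with medians of 3.47 and 6.34, and here the populations differed less. Spheres were on the ES side in 680 (77.7%, 74.8 to 80.4%) and uninduced cells in 528 (60.3%, 57.0 to 63.6%). The median position was 0.86 in spheres and 0.64 in uninduced cells. Both were on the ES side in 507, spheres alone in 173, uninduced cells alone in 21 and neither in 174. The spheres were at least 2-fold below the uninduced cells in 186 and at least 2-fold above them in 40. At 4-fold the numbers were 44 and 13. Their sphere values had a median of 4.15 and their uninduced values 4.61, both between the ES and astrocyte medians. Where both the ES and the astrocyte value exceeded the overall median, uninduced cells were on the ES side in 50.0% of 230 probe sets higher in ES cells and 55.8% of 527 lower ones, and spheres in 95.2% and 76.7%.

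**Figure D5:**
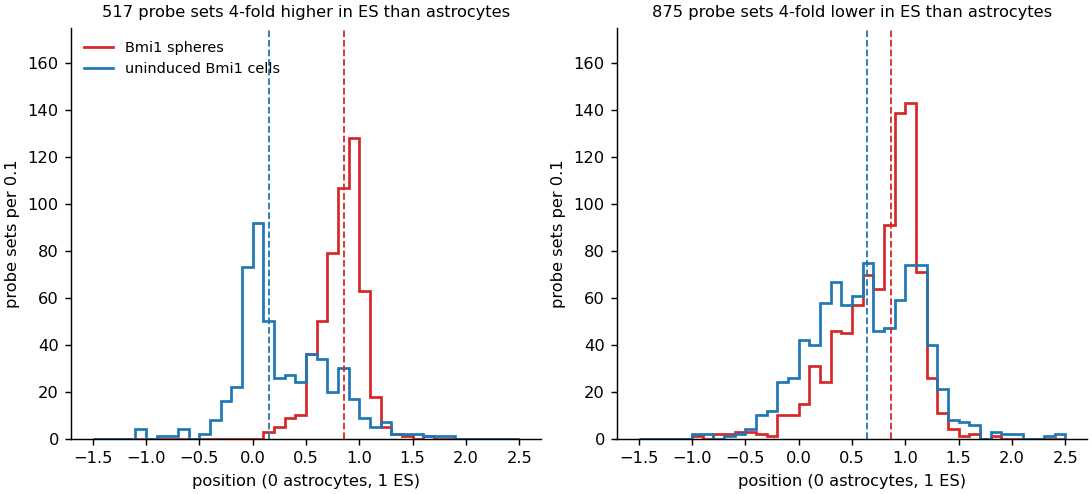
Number of probe sets (y axis) by position from the astrocyte value (0) to the ES value (1) in steps of 0.1 (x axis), red for Bmi1 spheres and blue for uninduced Bmi1 cells, with dashed lines at the medians and positions past -1.5 or 2.5 counted in the end bins. On the left (517 probe sets 4-fold higher in ES cells) the populations peak apart, with medians of 0.86 and 0.15, and on the right (875 probe sets 4-fold lower in ES cells) they overlap, with medians of 0.86 and 0.64.

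Across all 35557 probe sets the Pearson correlation of spheres was 0.961 with ES cells, 0.954 with uninduced cells and 0.925 with astrocytes. That of uninduced cells was 0.934 with ES cells and 0.934 with astrocytes. Probe sets share the probe chemistry and the level scale, so these values describe likeness between arrays only. At least 4-fold apart in either direction were 566 probe sets (2.97%) between spheres and uninduced cells, 362 (1.86%) between spheres and ES cells, and 1267 (6.55%) between spheres and astrocytes. Between uninduced cells and astrocytes there were 1123 (5.92%), and between uninduced cells and ES cells 1012 (5.18%). Over whole arrays the uninduced cells were thus no nearer to astrocytes than to ES cells. In these counts spheres had fewer wide differences from ES cells than from the uninduced cells. The counts include probe sets with 1 value at or below the overall median. Between spheres and uninduced cells, only 106 higher and 101 lower probe sets had both values above it. That split was not computed for spheres and ES cells, so the order was not checked on it.

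The differences that remained between spheres and ES cells went mostly one way. At least 4-fold higher in spheres than in ES cells were 347 probe sets (1.79% of 19416) and at least 4-fold lower 15 (0.0773%). In the 347, the median was 5.58 in spheres and 2.90 in ES cells, beside 5.24 in uninduced cells and 4.07 in astrocytes. This ES median lay below the overall median of 3.13, so many of the 347 entered only through the sphere array. The split with both values above the overall median was not computed for this pair. Uninduced cells were nearer to the spheres than to ES cells in 268 of them (77.2%), and within 2-fold of the spheres in 220. Astrocytes were nearer to the spheres in 155 (44.7%). Most of the probe sets by which spheres exceeded ES cells were thus ones that uninduced cells also had at a similar level. This comparison and that with uninduced cells share the sphere array.

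Few probe sets set the sphere array apart from all the others. Of 20621 whose highest value exceeded the overall median, 22 (0.107%) were at least 4-fold higher in spheres than on each of the other arrays, and 0 were at least 4-fold lower than on each of them. For uninduced cells the numbers were 44 (0.213%) and 93 (0.451%), for astrocytes 361 (1.75%) and 46 (0.223%), and for ES cells 7 (0.0339%) and 73 (0.354%). At 2-fold, 200 were higher and 96 lower in spheres than on each other array, against 335 and 364 in uninduced cells. The numbers were 1173 and 771 in astrocytes, and 128 and 640 in ES cells. At 2-fold and at 4-fold, ES cells thus had fewer higher probe sets of this kind than spheres.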

How the data were processed

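The authors deposited log2 values, 1 per probe set. The submitters' processing notes name RMA, with no version. Between 4 and 11 values per array were negative, and whether the authors applied another step is not stated. Groups came from the sample titles. Here the sphere value minus the uninduced value was taken on that log2 scale, without further normalisation, and counted at 2-fold and 4-fold. Shares have 95% exact binomial (Clopper-Pearson) intervals. With 1 array per group no test was run, and the number of arrays limits the precision. The script was tested on simulated data. Tools were Python 3.11.15, numpy 2.4.6, pandas 2.3.3, scipy 1.17.1 and statsmodels 0.14.6.

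The samples, gene lists and rules were chosen with earlier results of these data known. None of the 21 gene lists was computed, because no table used here pairs the probe sets with genes. By rule, the 2 widest differences per direction are named. The Agilent arrays were not used here. Alternatives changed the filter, the scaling, the fold threshold and the rule for sides, and 2 were added after the data were seen: distinct rows only, and without the run of consecutive numbers.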

Additional observations from a re-analysis of the deposited data

How the results depend on the processing

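With 1 array per group, the spread between cultures is unknown and no replicate could be left out. No paired analysis was possible because each group has 1 array. Of 93 values recomputed for the comparison of spheres with uninduced cells, 73 stayed within the limits set for them, which were 1.5 times for a count and the 95% binomial interval for a share or the median. When both values had to exceed the median, 734 probe sets were 2-fold higher, 106 were 4-fold higher and 101 were 4-fold lower. With the higher value above the 75th percentile, 732 were 2-fold higher and 245 were 4-fold higher. With values raised to the median, 239 were 4-fold higher. The median difference, -0.05 as reported, was -0.016 without a filter, -0.072 with both values above the median, -0.12 above the 75th percentile, -0.18 with arrays centred on their medians, -0.026 after quantile normalisation and -0.063 without the consecutive run. It turned to 0.022 with level-dependent centring, and under that centring 55.9% of the probe sets that changed 2-fold were higher in spheres, as were 52.2% after quantile normalisation and 50.0% without a filter. The share of higher probe sets at 4-fold ran from 51.2% with both values above the median to 76.0% with level-dependent centring.

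ES cells were on the sphere side in 84.4% of higher and 77.7% of lower probe sets at 3-fold, and in 92.9% and 100% at 8-fold. The share was 97.6% of lower ones when only probe sets at least 1 log2 unit nearer to either side were counted, and 92.4% of higher ones without the run. Astrocytes were on the sphere side in 26.2% of the higher probe sets at 8-fold, and for lower ones in 43.9% to 55.0% over the alternatives, on both sides of an even split. For the probe sets chosen on ES cells and astrocytes, the share of those higher in ES cells with uninduced cells on the ES side ran from 4.58% at 8-fold to 50.0% with both values above the median, and that with spheres on the ES side from 89.6% to 99.3%. The causes of these shifts were not tested.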
